A study of Mus musculus with 6 samples.

Results

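Tcf7, Lef1, Il7r, S1pr1, Klf2, Foxo1, Bach2, Satb1 and Id3, genes of the naive and stem-like T cell programme, were followed by RNA-seq in mouse CD4+ T cells that had been polarized towards the TH17 fate with CKBA or with DMSO. The members were taken by symbol from the deposited gene table. All 9 of 9 symbols were found, once each, among 47725 genes, and all 9 passed the filter on low counts. CKBA is a chemical derivative of AKBA, a boswellic acid found in frankincense resin, and DMSO is its solvent.

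The CKBA group (3 libraries) and the DMSO group (3 libraries) both came from wild-type C57BL/6 naive CD4+ T cells kept for 3 days, per the labels, in medium with antibodies to CD28 (2 µg/ml), to IFN-γ (10 µg/ml) and to IL-4 (5 µg/ml). Both groups also received human TGF-β1, mouse IL-6 and mouse IL-23, each at 10 ng/ml. The dose of CKBA, and whether libraries of a group came from separate animals or cultures, are not given in the sources used here. The p-values therefore measure the spread between these libraries, which may be technical.

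Naive T cells are held in a resting, recirculating state by a small set of transcription factors. TCF-1 (encoded by Tcf7) and LEF-1 share a DNA-binding HMG box and keep genes of naive and self-renewing T cells active. FOXO1, which growth factor and antigen receptor signals drive out of the nucleus, switches on Klf2 and Il7r, and KLF2 in turn switches on S1pr1, the receptor that lets lymphocytes leave lymph nodes. These genes are usually turned down when a T cell is activated and divides.

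Total counts per library lay between 19838347 and 25331863. Replicate 3 stood apart from replicates 1 and 2 in both groups, with a chi-square per gene of 2.86 to 3.37 between replicates 1 and 2 and of 35.2 to 38.4 between replicate 3 and either of them. Epidermis is named as the tissue in the labels, and 6 of 8 keratinocyte markers, Krt14, Krt1, Dsg3, Trp63, Lor and Ivl, were at 0 in every library. Krt5 had 1 count in all, and Krt10 was at 0.64 on the log2 scale and did not pass the test (adjusted p = 0.158, edgeR). The 8 markers summed to 1.76 to 2.00 CPM with CKBA and 0.93 to 1.42 CPM with DMSO, with every CKBA library above every DMSO library. The 10 CD4 T cell markers summed to 2668 to 2870 CPM, a TMM-scaled count relative to the size of the library, in CKBA libraries, against 3375 to 3481 CPM in DMSO libraries, and 3 of them, Cd28, Cd3d and Zap70, were lower with CKBA. The 5 B cell markers, of a cell type that also uses several of the 9 genes, summed to 54.2, 53.1 and 12.1 CPM in CKBA replicates 1, 2 and 3 and to 25.9, 27.2 and 20.6 CPM in DMSO replicates 1, 2 and 3, so that CKBA replicates 1 and 2 were above and CKBA replicate 3 below every DMSO library. Of single markers in the other lists, Ms4a1 (B cell) and Eomes (NK cell) were higher with CKBA, at 2.02 and 2.23 on the log2 scale, and Cd8a was lower, at -0.50 (edgeR adjusted p of 0.0434, 0.0329 and 0.035). Ms4a1 stood at 4.74, 5.07 and 1.21 CPM in CKBA libraries and 0.76, 0.64 and 1.27 CPM in DMSO libraries, so its groups overlapped. The other 4 B cell markers did not pass the test. Calls of single markers were not followed through the alternatives. The 2 CD8 T cell markers summed to 27.3 to 32.1 CPM in CKBA libraries and 35.2 to 45.7 CPM in DMSO libraries, the 5 NK cell markers to 38.6 to 46.0 CPM with CKBA and 31.8 to 38.9 CPM with DMSO, and the 6 myeloid markers to 1.52 to 3.56 CPM with CKBA and 2.16 to 4.07 CPM with DMSO. The part of these lists in the results was not tested. In bulk RNA, fewer cells of a type and less RNA per cell cannot be told apart.

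With CKBA, 5 of the 9 genes were lower, 1 was higher and 3 did not pass the test. Il7r, Satb1, S1pr1, Tcf7 and Bach2 fell, by 4.72-fold, 2.75-fold, 2.11-fold, 2.05-fold and 1.44-fold. Id3 rose 2.23-fold. Lef1, Klf2 and Foxo1 had fitted changes of 0.055, -0.11 and -0.046 on the log2 scale. Over all 13928 genes tested, 9.23% were lower and 7.86% higher at an adjusted p under 0.05 in edgeR's quasi-likelihood test, with p-values adjusted by Benjamini and Hochberg's method. Of the 6 genes called, 4 were lower and 1 higher by at least 1 on the log2 scale, as were 3.33% and 1.9% of all tested genes. The median log2 fold change of all tested genes was 0.0052. In all 6 genes that passed, the 3 CKBA libraries lay on one side of the 3 DMSO libraries, below them in 5 genes and above them in 1. Of all tested genes, called or not, 36.6% were separated in that way, 18.4% below and 18.2% above. The 6 genes were picked by a test on the same libraries, so their separation adds no further support.

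**Figure D1:**
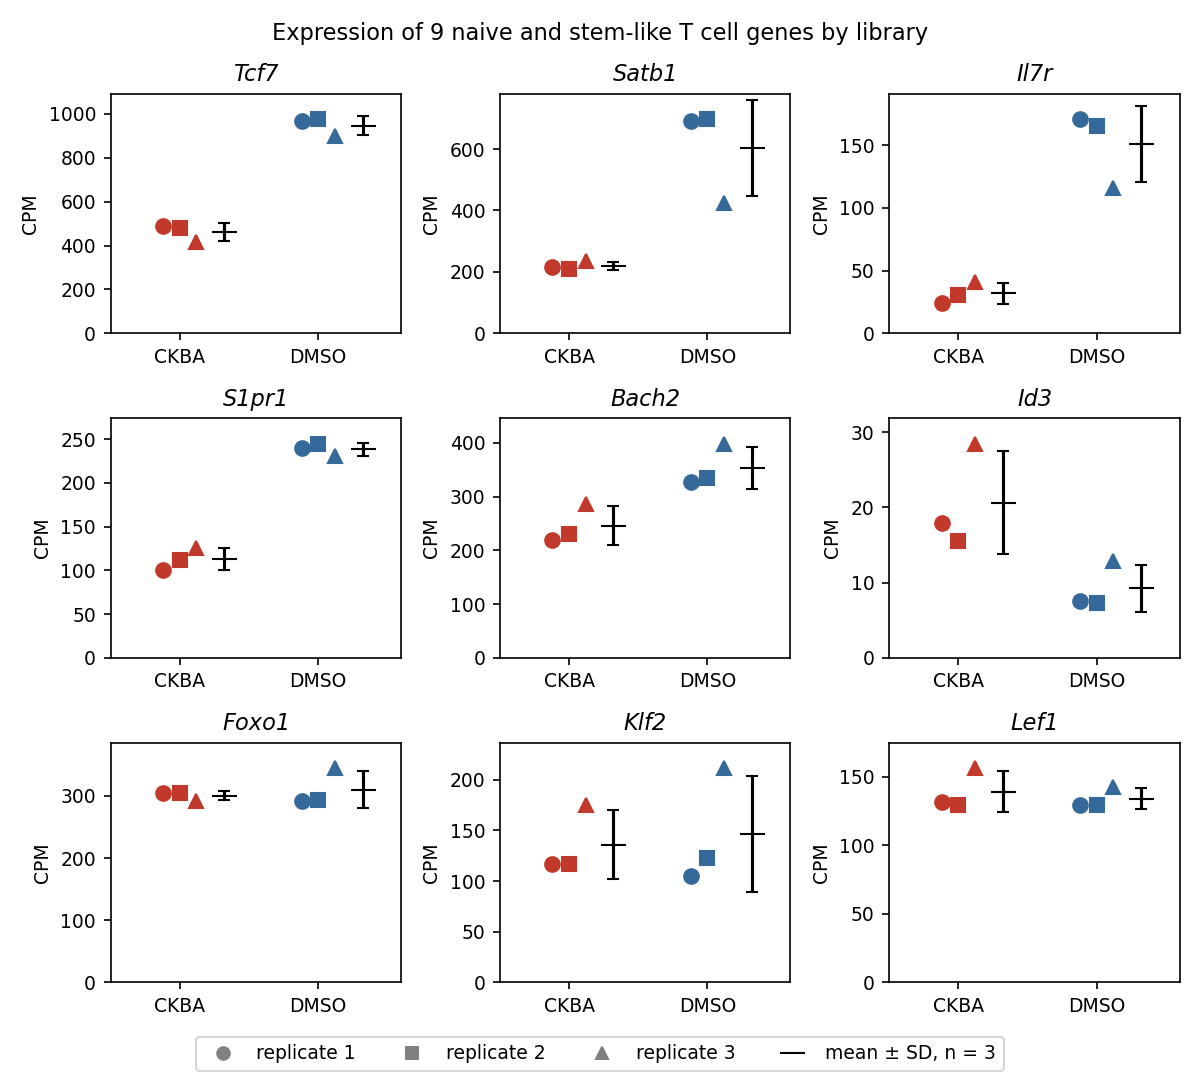
CPM of each of the 9 genes (vertical axes, from 0) in the 3 CKBA and 3 DMSO libraries, with marker shape for the replicate number and the mean ± SD (n = 3) beside them. CKBA libraries lie below all DMSO libraries for Tcf7, Satb1, Il7r, S1pr1 and Bach2, above them for Id3, and overlap them for Foxo1, Klf2 and Lef1.

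RefSeq promoter windows of 250 bases before to 50 after a start site (GRCm38.p6) were at hand for 8 of the 9 genes, with 16 start sites among them. The gene not matched was S1pr1. The following 5 motifs were searched as exact letters on both strands. The FOXO motif GTAAACA was present in 1 of the 16 windows, against 3.65% of all 32851 windows. The KLF motif CACACCC was present in 3 of 16, against 7.95%, the TCF/LEF motif CTTTGAT in 0 of 16, against 3.73%, the E box CANNTG in 12 of 16, against 72.3%, and the half-site TGCTGA of the element that BACH2 binds in 2 of 16, against 19.5%. An E box can overlap another motif, and windows of 1 gene can overlap each other. The 3 windows with the KLF letters belong to Tcf7, Satb1 and Id3, which all passed the test, the first 2 lower and the third higher, and are shown here because one of them also holds the FOXO letters. Windows of Il7r and Bach2, which passed, and of Foxo1, Lef1 and Klf2, which did not, held no KLF letters. Other windows of Tcf7 and Satb1 held none either. Capitals mark the KLF letters or their reverse complement GGGTGTG and, in Tcf7, the FOXO letters. The windows shown are chr11:52282546-52282845 (minus strand) for Tcf7, chr17:51833241-51833540 (minus strand) for Satb1 and chr4:136143572-136143871 (plus strand) for Id3. A match of letters is no binding site.
Tcf7: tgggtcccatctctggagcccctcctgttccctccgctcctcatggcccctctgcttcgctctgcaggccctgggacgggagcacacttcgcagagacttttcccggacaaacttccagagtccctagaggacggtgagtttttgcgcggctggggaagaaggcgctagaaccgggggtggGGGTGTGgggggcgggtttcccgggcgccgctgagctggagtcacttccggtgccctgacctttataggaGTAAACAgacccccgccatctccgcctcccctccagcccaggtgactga
Satb1: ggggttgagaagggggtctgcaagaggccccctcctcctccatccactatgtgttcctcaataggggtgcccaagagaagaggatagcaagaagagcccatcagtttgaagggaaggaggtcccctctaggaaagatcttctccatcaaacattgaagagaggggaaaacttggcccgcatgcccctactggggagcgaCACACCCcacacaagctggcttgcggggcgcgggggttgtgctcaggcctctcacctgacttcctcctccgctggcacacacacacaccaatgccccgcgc
Id3: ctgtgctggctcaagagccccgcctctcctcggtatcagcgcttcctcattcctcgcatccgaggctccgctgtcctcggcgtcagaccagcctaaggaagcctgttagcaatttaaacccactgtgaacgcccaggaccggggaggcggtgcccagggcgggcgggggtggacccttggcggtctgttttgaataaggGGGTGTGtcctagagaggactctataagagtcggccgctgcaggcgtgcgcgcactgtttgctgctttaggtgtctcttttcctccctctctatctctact

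Of the genes for the HMG box factors TCF-1 and LEF-1, Tcf7 fell and Lef1 did not pass the test. Tcf7 (ENSMUSG00000000782, GRCm38 chromosome 11, 52252371 to 52283014, minus strand) stood at 489, 482 and 414 CPM in CKBA replicates 1, 2 and 3, against 966, 976 and 900.1 CPM in DMSO replicates 1, 2 and 3. The groups did not overlap, and the lowest DMSO library was far above the highest CKBA library. The log2 fold change of CKBA over DMSO was -1.04 ± 0.088 (SE), with an adjusted p = 0.000563 in edgeR. Within replicate numbers 1, 2 and 3 the difference was -0.98, -1.02 and -1.12 on the log2 scale. Lef1 (ENSMUSG00000027985, chromosome 3, 131110471 to 131224356, plus strand), the close relative of Tcf7, stood at 132, 129 and 156 CPM in CKBA libraries, against 129, 129.6 and 143 CPM in DMSO libraries. These groups overlapped, and replicate 3 was the highest library of each. Its log2 fold change was 0.055 with a 95% interval of -0.16 to 0.27 (adjusted p = 0.73, edgeR). The count of all reads of a gene does not tell long from short isoforms of either gene.

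On the authors' FPKM scale, which is per gene length, the ratio of Tcf7 to Lef1 was 12.4, 12.5 and 8.89 in CKBA libraries, against 25.04, 25.2 and 21.1 in DMSO libraries. The ratio averaged 11.3 ± 2.06 with CKBA and 23.8 ± 2.32 with DMSO (SD, n = 3 each), with no overlap. This ratio rests on the same libraries and restates the values of both genes, so it adds no further support. An exact two-sided permutation test of the ratio gave p = 0.1 over 20 splits, the lowest p that 3 libraries against 3 can reach.

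Satb1 and Bach2, both nuclear regulators of the naive state, fell. Satb1 (ENSMUSG00000023927, chromosome 17, 51736187 to 51833290, minus strand) encodes a chromatin organizer that T cell development depends on. It stood at 215, 210.1 and 235 CPM in CKBA libraries, against 691, 697 and 424 CPM in DMSO libraries. DMSO replicate 3 lay between the other DMSO libraries and the CKBA libraries, which were close together. The log2 fold change was -1.46 ± 0.18 (adjusted p = 0.00249, edgeR), and the differences within replicate numbers 1, 2 and 3 were -1.68, -1.73 and -0.85. Bach2 (ENSMUSG00000040270, chromosome 4, 32238804 to 32586108, plus strand) encodes a repressor that restrains effector differentiation. It stood at 219, 231 and 287 CPM in CKBA libraries and 327, 335 and 398 CPM in DMSO libraries, with replicate 3 the highest of each group. Its log2 fold change was -0.52 ± 0.12 (adjusted p = 0.025, edgeR), and the within-number differences were -0.58, -0.53 and -0.47. The Bach2 call was lost without CKBA replicate 1, CKBA replicate 2, DMSO replicate 1 or DMSO replicate 2, at adjusted p of 0.102, 0.107, 0.0659 and 0.0779 in edgeR, and was kept with the replicate number as a block (adjusted p = 0.000907, edgeR).

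Foxo1 and Klf2, the regulators at the head of the lymph node exit programme, did not pass the test. Foxo1 (ENSMUSG00000044167, chromosome 3, 52268336 to 52353221, plus strand) stood at 304, 305 and 292 CPM in CKBA libraries, against 292, 294 and 344 CPM in DMSO libraries. The groups overlapped, and only DMSO replicate 3 stood out. Its log2 fold change was -0.046 with a 95% interval of -0.24 to 0.15 (adjusted p = 0.747, edgeR). Klf2 (ENSMUSG00000055148, chromosome 8, 72319033 to 72321656, plus strand) stood at 117, 117 and 175 CPM in CKBA libraries and 105, 123 and 211 CPM in DMSO libraries. Replicate 3 was the highest library in both groups, by 0.58 with CKBA and 0.89 with DMSO on the log2 scale over the mean of replicates 1 and 2. The log2 fold change of Klf2 was -0.11 with the widest 95% interval of the 3 genes that did not pass, -0.72 to 0.51 (adjusted p = 0.824, edgeR). RNA levels do not report where FOXO1 protein sits in the cell.

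The 2 receptor genes downstream of these factors both fell. Il7r (ENSMUSG00000003882, chromosome 15, 9505788 to 9530176, minus strand) encodes the IL-7 receptor α chain, through which naive and memory T cells receive a survival signal. It stood at 24.2, 30.9 and 40.5 CPM in CKBA libraries, against 171, 165 and 116 CPM in DMSO libraries. The groups lay far apart, with replicate 3 the highest of the CKBA libraries and the lowest of the DMSO libraries. The log2 fold change was -2.24 ± 0.21 (adjusted p = 0.000875, edgeR), larger in size than that of 98.5% of all tested genes, the highest such share of the 9. Within replicate numbers 1, 2 and 3 the difference was -2.82, -2.42 and -1.51. S1pr1 (ENSMUSG00000045092, chromosome 3, 115710433 to 115715072, minus strand) stood at 101, 111 and 126 CPM in CKBA libraries and 239, 245 and 230.4 CPM in DMSO libraries. The DMSO libraries were nearly level, and the lowest of them was above every CKBA library. The log2 fold change was -1.08 ± 0.093 (adjusted p = 0.000605, edgeR), with within-number differences of -1.25, -1.14 and -0.87.

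Id3 was the one member that rose. Id3 (ENSMUSG00000007872, chromosome 4, 136143497 to 136145755, plus strand) encodes an inhibitor that binds E proteins and keeps them off DNA. It stood at 17.9, 15.5 and 28.5 CPM in CKBA libraries, against 7.58, 7.31 and 12.9 CPM in DMSO libraries. Replicate 3 was the highest library of each group, and the groups did not overlap. The log2 fold change was 1.16 ± 0.29 (adjusted p = 0.0324, edgeR), and the within-number differences were 1.24, 1.09 and 1.14. The call was lost without CKBA replicate 1, CKBA replicate 2, DMSO replicate 1 or DMSO replicate 2, at adjusted p of 0.0802, 0.0526, 0.127 and 0.132, while the replicate block gave an adjusted p = 0.000358 (edgeR).

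**Figure D2:**
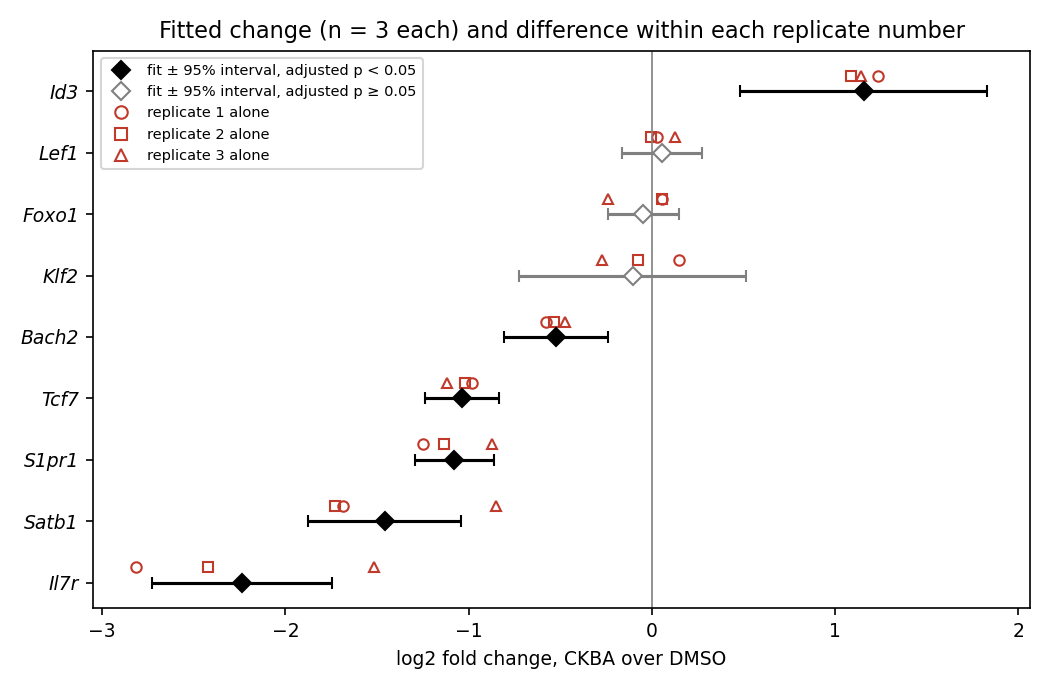
Log2 fold change of CKBA over DMSO (horizontal axis) for the 9 genes, with diamonds for the fit on 3 libraries a group and bars for its 95% interval, and open red markers for the difference within each replicate number. Intervals of Il7r, Satb1, S1pr1, Tcf7 and Bach2 lie below 0 and that of Id3 above it. Of the genes that fell, replicate 3 shows the smallest difference of the 3 numbers for Il7r (-1.51), Satb1 (-0.85), S1pr1 (-0.87) and Bach2 (-0.47). For Tcf7 (-1.12) it shows the largest.

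The 9 genes spanned a wide range of levels per gene length. On the authors' FPKM scale, Tcf7 was the highest in both groups, at 175 ± 13.4 FPKM with CKBA and 362 ± 8.56 FPKM with DMSO (SD, n = 3 each). Among the 13928 tested genes it ranked 210th with CKBA and 104th with DMSO by mean FPKM. With CKBA the order after Tcf7 was Klf2, S1pr1, Foxo1, Bach2, Lef1, Satb1, Id3 and Il7r, from 73.5 FPKM for Klf2 to 9.91 FPKM for Il7r. The libraries of S1pr1 and Foxo1, of Satb1 and Id3, and of Id3 and Il7r overlapped, so those neighbours in the CKBA order did not differ beyond their spread. With DMSO the order after Tcf7 was Klf2, S1pr1, Il7r, Foxo1, Bach2, Satb1, Lef1 and Id3, from 79.9 FPKM for Klf2 to 5.21 FPKM for Id3. Klf2 overlapped S1pr1 there, and each neighbouring pair from Il7r to Satb1 overlapped as well. Il7r thus stood last of 9 with CKBA, at 9.91 ± 2.71 FPKM, and 4th with DMSO, at 47.0 ± 8.59 FPKM (SD, n = 3 each).

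**Figure D3:**
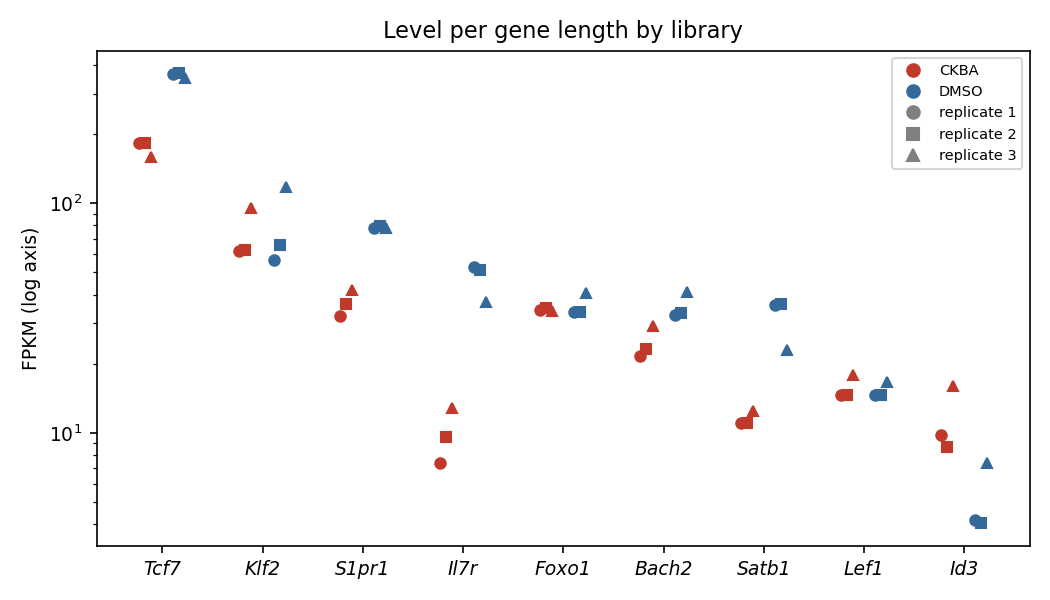
The authors' FPKM (vertical log axis) of the 9 genes in each library, CKBA in red and DMSO in blue, ordered by the DMSO mean. Tcf7 lies above the other 8 genes in every library, and Il7r has the lowest mean of the 9 genes with CKBA (9.91 FPKM) and the 4th highest with DMSO (47.0 FPKM).

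In the authors' deposited table, Il7r, Satb1, S1pr1, Tcf7 and Id3 are marked significant, with log2 fold changes of -2.2, -1.44, -1.07, -1.06 and 1.16. Bach2 is not marked in the authors' deposited table, at a log2 fold change of -0.52 and an FDR of 0.0048, and no gene marked there has a change under 1 in size.

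The genes most like 3 of the factors in pattern were found by the distance between log2 CPM values centred over the 6 libraries, among 10081 genes with a mean of at least 5 CPM. Nearest to Tcf7 were Pde2a, Sbno2 and Cst7, at distances of 0.17, 0.17 and 0.20, where the median gene lay at 1.35. Nearest to Foxo1 were Eya3, Myl12b and Sgcb, at 0.059, 0.067 and 0.085, with a median of 0.47. Nearest to Klf2 were Actn1, Prkra and Rab37, at 0.23, 0.25 and 0.26, with a median of 1.003. These distances describe 6 libraries only.

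Other genes of the same pathways were read from 10 lists, some of which share genes. Each list's counts stand against 9.23% of all tested genes lower and 7.86% higher, 17.1% in all. Without CKBA replicate 1, CKBA replicate 2, DMSO replicate 1 and DMSO replicate 2, the shares of all tested genes were 3.17%, 3.1%, 2.91% and 2.73% lower and 2.42%, 2.42%, 1.88% and 1.76% higher. Without CKBA replicate 3 they were 14.1% lower and 13.7% higher, and without DMSO replicate 3 they were 11.9% and 9.94%.

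Of the FOXO family genes and FOXO targets, 12 of 18 were lower with CKBA. Of 19 listed, 18 were tested, of which 1 rose and 5 did not pass, with a median log2 fold change of -0.48. Sesn3, a sestrin gene, and Ccng2, which encodes the antiproliferative cyclin G2, had log2 fold changes of -1.21 and -1.11 (edgeR adjusted p of 0.000442 and 0.00183). The listed gene that rose was Irs2, an adaptor of the insulin receptor, at 0.82 (adjusted p = 0.0015, edgeR). Each of these 3 genes kept its call whichever single library was left out. The number that fell was 5 without CKBA replicate 1, CKBA replicate 2, DMSO replicate 1 or DMSO replicate 2, 12 without either replicate 3, and 2 with replicates 1 and 2 summed.

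The list of other naive and stem-like T cell genes held calls in both directions. Of 21 tested, 8 fell, 3 rose and 10 did not pass, with a median log2 fold change of -0.23. Slamf6, a surface marker of stem-like T cells, averaged 42.5 ± 4.44 CPM with CKBA and 115 ± 30.8 CPM with DMSO (SD, n = 3 each), with a change of -1.43 ± 0.20 on the log2 scale (adjusted p = 0.00359, edgeR). Ets1, a transcription factor of resting T cells, fell by 0.64 on that scale (adjusted p = 0.00561, edgeR). Xcl1, the chemokine lymphotactin, which activated T cells also make, averaged 58.5 ± 12.1 CPM with CKBA and 9.87 ± 3.75 CPM with DMSO (SD, n = 3 each), which is 2.56 higher on the log2 scale (adjusted p = 0.00129, edgeR). Trat1, a T cell receptor adaptor gene, had a log2 fold change of 2.68 and Pde7a, a phosphodiesterase gene, of 0.46 (edgeR adjusted p of 0.0148 and 0.0187). Their calls depended on the libraries, with an estimate of 3.78 for Trat1 without DMSO replicate 3, with adjusted p of up to 0.073 for Trat1 without CKBA replicate 1, 2 or 3 or DMSO replicate 1 or 2, and of up to 0.091 for Pde7a without CKBA replicate 2 or DMSO replicate 1 or 2 (edgeR). The number that fell was 5, 3, 3 and 3 without CKBA replicate 1, CKBA replicate 2, DMSO replicate 1 and DMSO replicate 2. The number that rose was 2, 1, 1 and 1 in those fits and 5 with the replicate block. With replicates 1 and 2 summed, 1 fell and 0 rose.

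Of 19 tested regulators of quiescence, 7 were lower and 1 higher with CKBA, with a median of -0.39. With replicates 1 and 2 summed, 1 was lower and 0 higher. Dgka, a diacylglycerol kinase gene that damps antigen receptor signals, averaged 469.7 ± 24.1 CPM with CKBA and 825 ± 24.95 CPM with DMSO (SD, n = 3 each), with a log2 ratio of -0.81 (adjusted p = 0.000701, edgeR). Slfn1, a Schlafen gene of resting T cells, and Zfp36l1, an mRNA decay factor gene, also fell, at -1.72 and -0.75 (edgeR adjusted p of 0.00075 and 0.00412). Foxp1, which keeps naive T cells quiescent, went the other way, at 258 ± 35.9 CPM with CKBA and 162 ± 6.65 CPM with DMSO (SD, n = 3 each), with a log2 ratio of 0.67 (adjusted p = 0.00621, edgeR). These 4 genes kept their calls whichever single library was left out.

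Of genes around the 2 receptors, 4 of 14 were called for S1P and 3 of 11 for IL-7, where 17.1% of all tested genes were called, and these shares were not compared by a test. Of 14 tested genes for S1P receptors and S1P synthesis and breakdown, 3 fell, 1 rose and 10 did not pass, with a median of -0.17. S1pr4, another S1P receptor of lymphocytes, fell by 0.75 (adjusted p = 0.00149, edgeR), to 44.8 ± 1.70 CPM with CKBA, against 75.4 ± 4.47 CPM with DMSO (SD, n = 3 each). Cd69, whose product binds S1PR1 and takes it off the cell surface, stood at 86.8, 88.6 and 102 CPM in CKBA libraries and 64.7, 54.4 and 49.2 CPM in DMSO libraries, with a log2 ratio of 0.72 (adjusted p = 0.0074, edgeR). S1pr2 and Plpp2, a lipid phosphatase gene, had log2 fold changes of -0.72 and -1.27 (edgeR adjusted p of 0.0361 and 0.0441). Neither of the last pair was called without CKBA replicate 1, CKBA replicate 2, DMSO replicate 1 or DMSO replicate 2, with adjusted p of up to 0.137 and 0.164, and with the replicate block Plpp2 had an adjusted p = 0.072 (edgeR). The number that fell was 1 in each of those 4 fits and 5 without CKBA replicate 3, and 2 rose with the replicate block. Of 11 tested genes of IL-7 receptor signalling, 3 fell, 0 rose and 8 did not pass, with a median of -0.14. Jak3, the kinase bound to the common γ chain, Mcl1, a survival gene of the BCL-2 family, and Stat5b, a transcription factor of the pathway, had log2 fold changes of -0.75, -0.36 and -0.26 (edgeR adjusted p of 0.00848, 0.0138 and 0.0423). The Jak3 call was lost without DMSO replicate 2 (adjusted p = 0.0503, edgeR), and the Mcl1 call without CKBA replicate 2, DMSO replicate 1 or DMSO replicate 2, with adjusted p of up to 0.0826 (edgeR). The Stat5b call was lost without any one library other than CKBA replicate 3, with adjusted p of up to 0.179, and with no filter on low counts or limma on log2 FPKM. The common γ chain gene Il2rg, which was picked with its values known, was at -0.042 and did not pass (adjusted p = 0.763, edgeR). The number that fell was 2, 1, 1 and 0 without CKBA replicate 1, CKBA replicate 2, DMSO replicate 1 and DMSO replicate 2, 5 without CKBA replicate 3, and 5 with the replicate block, where 1 rose. In both the S1P and the IL-7 list, 0 genes fell and 0 rose with replicates 1 and 2 summed.

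**Figure D4:**
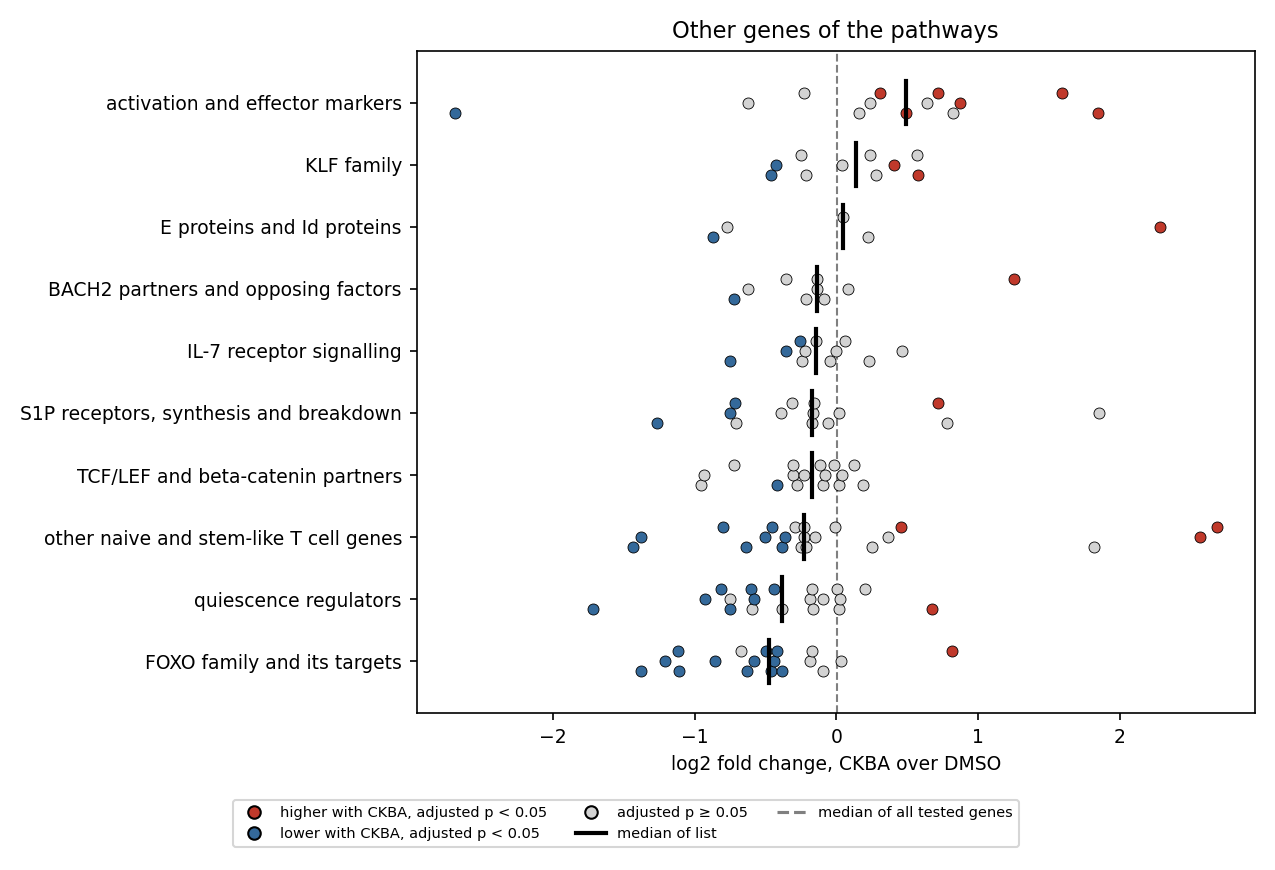
Log2 fold change of CKBA over DMSO (horizontal axis) of each tested gene in 10 pathway lists, with red for genes that rose, blue for genes that fell and grey for genes that did not pass the test. Black bars mark list medians, from -0.48 for the FOXO list to 0.49 for the activation list, and the dashed line marks the median of all tested genes.

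Relatives and partners of the other members had 1 of 16 genes called for TCF/LEF, 4 of 10 for the KLF family, 2 of 9 for BACH2 and 2 of 5 for E and Id proteins. Of 16 tested partners of TCF-1, LEF-1 and β-catenin, Tle1, a corepressor gene, fell by 0.42 (adjusted p = 0.0199, edgeR) and the other 15 did not pass, with a median of -0.17. That call was lost without CKBA replicate 1, CKBA replicate 2, DMSO replicate 1 or DMSO replicate 2, with adjusted p of up to 0.108 (edgeR). In the same list 6 genes fell without CKBA replicate 3, 4 without DMSO replicate 3 and 5 with the replicate block. Of 10 tested KLF family genes, Klf10 and Klf6 rose, with log2 fold changes of 0.58 and 0.41, and Klf13 and Klf7 fell, with -0.43 and -0.46 (edgeR adjusted p of 0.00834, 0.0153, 0.0103 and 0.0334). Each of the 4 was called in at most 4 of the 6 fits without 1 library, and all 4 lost their calls without DMSO replicate 1 or DMSO replicate 2, with adjusted p of up to 0.0522, 0.0867, 0.0649 and 0.13 (edgeR). Of 9 tested partners and opponents of BACH2, Irf4, an effector transcription factor gene, fell by 0.73 and Hmox1, heme oxygenase 1, rose by 1.25 (edgeR adjusted p of 0.00244 and 0.0484). The Hmox1 call was lost without any one library other than CKBA replicate 3, with adjusted p of up to 0.171 (edgeR), and with upper quartile scaling, no filter on low counts or limma on log2 FPKM. Without CKBA replicate 3 its estimate was 0.69. Of 5 tested E protein and other Id genes, Id1, a relative of Id3, stood at 6.62, 8.43 and 22.2 CPM in CKBA libraries and 1.32, 2.45 and 3.86 CPM in DMSO libraries, with a log2 ratio of 2.29 ± 0.53 (adjusted p = 0.0248, edgeR). CKBA replicate 3 was the highest for Id1, as for Id3, and without it the estimate was 1.56. The Id1 call was lost without CKBA replicate 2, DMSO replicate 1 or DMSO replicate 2, with adjusted p of up to 0.108 (edgeR). Without CKBA replicate 3, or with the replicate block, 2 genes of that list rose. The E protein gene Tcf4 fell by 0.87 (adjusted p = 0.00314, edgeR). Id2, also picked with its values known, stood at 66.9, 70.7 and 52.7 CPM in CKBA libraries and 138, 129 and 58.0 CPM in DMSO libraries. Its log2 fold change was -0.77 and did not pass the test (adjusted p = 0.109, edgeR). DMSO replicate 3 was far below the other DMSO libraries for Id2. The number of that list that fell was 2 with DESeq2, without DMSO replicate 3, or with both replicate 3 libraries left out. In each of the TCF/LEF, KLF, BACH2 and E and Id lists, 0 genes fell and 0 rose with replicates 1 and 2 summed.

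Activation and effector markers were read beside them. Of 13 tested, 6 rose, 1 fell and 6 did not pass, with a median of 0.49. Slc7a5 and Slc3a2, the 2 chains of an amino acid transporter of activated T cells, rose, at 1.84 and 1.59 on the log2 scale (edgeR adjusted p of 0.000503 and 0.000424). Gzmb, which encodes granzyme B, fell by 2.69 (adjusted p = 0.000196, edgeR). The number that rose was 3 without CKBA replicate 1, CKBA replicate 2, DMSO replicate 1 or DMSO replicate 2, and 2 fell without DMSO replicate 3. In this list, 2 rose and 1 fell with replicates 1 and 2 summed.

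With both replicate 3 libraries left out, 5 of the 9 genes were lower and 1 higher, where 26.6% of tested genes were lower and 26.1% higher. With DESeq2 and with the replicate block the counts were 5 and 1 as well, where 11.7% and 14.4% of tested genes were lower and 10% and 13.8% higher. In a fit that treated the summed counts of replicates 1 and 2 as 1 library of their group, 0.359% of tested genes were lower and 0.372% higher. Il7r, S1pr1 and Tcf7 were lower in that fit (edgeR adjusted p of 0.0435, 0.0445 and 0.0482), and Satb1, Bach2 and Id3 lost their calls (edgeR adjusted p of 0.0875, 0.246 and 0.22). Of the pathway lists together, 4 genes other than the members were lower and 2 higher there.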

How the data were processed

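The deposited table held expected counts per gene, made by the authors with RSEM per the submitters' processing notes, which also name CASAVA 1.8, edgeR and the GRCm38 build. The aligner and the strandedness of the TruSeq libraries are not given in the sources used here. All deposited counts were whole (100% of values), so rounding changed none. The deposited FPKM values are the authors' own. The deposited log2 fold changes and p-values are the authors' comparison, credited to edgeR per the submitters' processing notes.

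The gene test was that of edgeR 4.0.16 under R 4.3.3 (TMM, filterByExpr, robust quasi-likelihood F test, Benjamini-Hochberg over all 13928 tested genes, adjusted p under 0.05). DESeq2 1.42.0, limma 3.58.1 on log2(FPKM + 1 or 0.1), other scalings and filters, the replicate block, leaving out libraries and summing replicates 1 and 2 were alternatives. Same-numbered libraries deviated together from their group means (correlations of 0.22, 0.22 and 0.42 over genes). CKBA replicate 1 correlated equally with DMSO replicate 2 (0.22), and CKBA replicate 2 correlated at 0.21 with DMSO replicate 1. These values set replicate 3 apart and do not show that replicates 1 and 2 pair by number. The block is given only as a paired alternative. Coordinates are from GENCODE M21, which held 47220 of 47725 identifiers. Annotated genes on the opposite strand held at most 2.39% of a member's count (Bach2, from Bach2os).

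The members, lists, motifs and alternatives were chosen with earlier results of these data known. Besides the members, up to 3 called genes with the smallest adjusted p were named per list and direction, with the 3 nearest patterns of Tcf7, Foxo1 and Klf2. Of the listed symbols, Tle5 and Grk2 were not matched. A gene that the naming rule took is not reported here.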

Additional observations from a re-analysis of the deposited data

How the results depend on the processing

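The falls of Il7r, S1pr1 and Tcf7 kept their direction and their call under every alternative run. Satb1, Bach2 and Id3 kept their direction in every alternative but not their call. With replicates 1 and 2 summed, the log2 fold changes of Satb1 (-1.32), Bach2 (-0.51) and Id3 (1.16) were no longer called. Id3 also lost its call with no filter on low counts (1.17, adjusted p = 0.0668, edgeR) and with limma on log2(FPKM + 1) (1.004, adjusted p = 0.0517). Without 1 library the estimate of Bach2 ranged from -0.65 to -0.43 and that of Id3 from 0.85 to 1.48. Estimates near 0 changed sign, where Lef1 ranged from -0.034 to 0.11, Klf2 from -0.33 to 0.26 and Foxo1 from -0.087 to 0.038 without 1 library, and with both replicate 3 libraries left out Klf2 was at 0.033 and Foxo1 at 0.057. None of these 3 was called in any alternative.

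Members called higher numbered 1, and 0 with no filter, with limma on log2(FPKM + 1), with replicates 1 and 2 summed, and 0 to 1 without 1 library. Members called lower numbered 5, 3 with replicates 1 and 2 summed and 4 to 5 without 1 library. Over all genes, 1095 were higher and 1286 lower. These counts were 1922 and 2009 with the replicate block, 56 and 54 with replicates 1 and 2 summed, 3660 and 3728 with both replicate 3 libraries left out, and 251 to 1961 and 390 to 2014 without 1 library. Of the pathway lists together, 15 genes were higher and 34 lower, against 24 higher with the replicate block, 2 and 4 with replicates 1 and 2 summed, 32 and 67 with both replicate 3 libraries left out, and 6 to 18 and 15 to 45 without 1 library. The cause of these changes was not tested. Of 32 list genes chosen by the naming rule and called, 18 stayed called without any 1 library, 31 with the replicate block and 6 with replicates 1 and 2 summed, and all 32 kept their sign in every alternative. Beyond Plpp2, the block changed no call of a named gene.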
